A study of Mus musculus with 16 samples.

Results

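Polycomb repressive complex 2 (PRC2) was followed here through the 10 mouse genes that encode its subunits, Ezh1, Ezh2, Eed, Suz12, Jarid2, Mtf2, Phf19, Aebp2, Rbbp4 and Rbbp7, which were chosen by symbol among the 24411 genes of the count table. RNA was sequenced from 16 libraries of celiac ganglia and tumors. Ganglia came from 2-week-old mice of a cross between the Th-MYCN line and a line with an insertional knock-out of one Runx1t1 allele, and the question of the series was how MYCN and the co-repressor Runx1t1 shape the transcriptome before and in neuroblastoma. The groups were transgene-free ganglia with wild-type Runx1t1 (4 libraries), transgene-free ganglia labelled heterozygous for Runx1t1 (3 libraries), ganglia homozygous for the MYCN transgene with wild-type Runx1t1 (3 libraries), ganglia homozygous for the transgene and labelled heterozygous for Runx1t1 (2 libraries), and tumors homozygous for the transgene with wild-type Runx1t1 (4 libraries); they are called transgene-free wild-type, transgene-free labelled het, MYCN wild-type, MYCN labelled het and tumors. The Th-MYCN line, Tg(Th-MYCN)41Waw on 129/SvJ, expresses human MYCN from the tyrosine hydroxylase promoter in neuroectodermal cells, and the knock-out line was CBB6-Runx1t1tm1Fc/H. The age of the mice with tumors was not given in the sources used here, and tissue and age therefore cannot be told apart between tumors and ganglia. Nothing in the labels said whether libraries were separate animals, so p-values measure the spread between these libraries.

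PRC2 places methyl groups on lysine 27 of histone H3, a mark of silenced genes, and is best known for holding developmental regulators off in stem cells and their progeny. Ezh1 and Ezh2 are alternative catalytic subunits, and Ezh2 is the form of dividing cells whereas Ezh1 persists in cells that have left the cycle. Eed reads the mark and, with Suz12, forms the core with the enzyme; Rbbp4 and Rbbp7 are histone-binding subunits that also sit in other chromatin complexes. Mtf2, Phf19 and Phf1 are the Polycomb-like accessory subunits of the PRC2.1 form, whereas Jarid2 and Aebp2 belong to PRC2.2. In neuroblastoma, EZH2 is known as a gene that MYCN can activate and as an enzyme that keeps differentiation genes silent.

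Promoters were read to show the sequence context of the 2 catalytic genes, whose levels moved in opposite directions, and of the 2 members with E2F letters. For all 10 members, RefSeq held a start site, with 14 starts in all, and the 250 bases before each were searched on both strands for the E-box CACGTG bound by MYC proteins, for the E2F letters TTTGGCGC, TTTCCCGC, TTTCGCGC and TTTGCCGC, and for CCAAT; no letters of one motif overlapped another. Sequences are from GRCm38.p6, 5′ to 3′ on the gene's strand, and capitals mark a match or its reverse complement. Ezh2 lies at chr6:47595031-47595280 on the minus strand, Ezh1 at chr11:101226464-101226713 on the minus strand, Suz12 at chr11:79992856-79993105 on the plus strand and Phf19 at chr2:34913977-34914226 on the minus strand. Positions are relative to the RefSeq start; for Ezh2 the whole window, and for Phf19 a stretch of it, lies inside the gene as GENCODE draws it.
Ezh2: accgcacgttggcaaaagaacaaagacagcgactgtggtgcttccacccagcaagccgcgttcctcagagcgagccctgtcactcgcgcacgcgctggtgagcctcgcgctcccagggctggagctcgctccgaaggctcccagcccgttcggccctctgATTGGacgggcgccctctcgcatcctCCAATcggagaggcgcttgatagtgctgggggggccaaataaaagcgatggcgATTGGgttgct
Ezh1: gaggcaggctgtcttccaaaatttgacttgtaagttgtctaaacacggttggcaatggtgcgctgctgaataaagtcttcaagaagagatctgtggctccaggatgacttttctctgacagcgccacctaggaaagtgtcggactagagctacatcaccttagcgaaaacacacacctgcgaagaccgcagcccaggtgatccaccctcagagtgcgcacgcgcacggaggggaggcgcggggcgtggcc
Suz12: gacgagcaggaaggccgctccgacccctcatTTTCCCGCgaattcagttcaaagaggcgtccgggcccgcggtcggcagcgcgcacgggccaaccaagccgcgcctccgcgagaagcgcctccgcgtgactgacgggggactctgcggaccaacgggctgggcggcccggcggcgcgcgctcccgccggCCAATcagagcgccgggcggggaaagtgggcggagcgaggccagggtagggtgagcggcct
Phf19: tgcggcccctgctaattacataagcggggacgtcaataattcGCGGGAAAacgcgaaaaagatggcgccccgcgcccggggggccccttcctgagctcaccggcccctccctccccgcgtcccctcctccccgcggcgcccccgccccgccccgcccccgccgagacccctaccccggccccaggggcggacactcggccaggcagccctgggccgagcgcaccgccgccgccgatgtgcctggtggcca

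Ezh2 held CCAAT letters at 3 places, from -90 to -86, from -64 to -60 and from -11 to -7 relative to its start, whereas Ezh1 held none of the 3 motifs. E2F letters were found in 2 of the 14 windows of the members, in Suz12 from -219 to -212 and in Phf19 from -208 to -201, against 1.86% of the 32851 promoter windows of that length. The E-box letters were found in 1 of the 14, that of Rbbp4, from -224 to -219, against 6.02% of windows, and CCAAT in 7 of the 14, each of a different member, against 33.8% of windows. These are matches of letters in one window and not measured sites.

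Libraries held 10692299 to 38618757 expected counts, and 6 libraries, all ganglia, were under 20000000. Ddx3y passed 1 CPM in 3 of 4 tumors and in 1 of 4 transgene-free wild-type, 1 of 3 transgene-free labelled het, 1 of 3 MYCN wild-type and 0 of 2 MYCN labelled-het libraries, so the sexes were unevenly spread. Some features bear on the values below. Transgene-free wild-type replicate 2 stood apart: its 7 lymphocyte marker genes summed to 963 normalised read counts (CPM, counts scaled by library size), against 51.8 or less in the other 15 libraries, with Cd79a of B cells at 110 CPM against 0.930 or less and Cd3e of T cells at 41.9 CPM against 0.311 or less. The targeted gene did not follow its label in transgene-free ganglia, where Runx1t1 ranged from 13.1 to 18.2 CPM in libraries labelled het and from 8.47 to 13.1 CPM in wild-type ones; in MYCN ganglia it ranged from 25.3 to 49.9 CPM in those labelled het and from 23.4 to 243 CPM in wild-type ones, and from 123 to 227 CPM in tumors. An insertional allele can still give reads from parts of the gene, so this count checks the label only in part. Tumors had fewer transcripts of glia and fibroblasts. In tumors 7 of 8 glial markers were lower than in transgene-free wild-type ganglia (summed 77.3 to 110 CPM in tumors against 491 to 1626 CPM). So were 6 of 6 fibroblast markers (436 to 1364 CPM against 3678 to 15626 CPM). Of endothelial markers 5 of 6 were lower and of adrenal cortex markers 4 of 5, but their sums overlapped. The endothelial sum was 63.4 to 157 CPM in tumors against 68.5 to 829 CPM. That of adrenal cortex was 6.69 to 11.5 CPM in tumors against 8.41 to 70.5 CPM. Of 6 myeloid markers 1 was higher, of 3 chromaffin markers 2 and of 4 liver markers 1, the liver sum reaching 4210 CPM in 1 tumor. None of the erythroid or skeletal muscle markers passed. Beside these marker counts, 27% of all genes were called higher in tumors and 30.7% lower. Without transgene-free wild-type replicate 2 the counts were 4 of 6 myeloid markers higher, none of 3 chromaffin and none of 4 liver markers. In that fit 4 of 6 endothelial and 1 of 3 skeletal muscle markers were lower, where 58.7% of all genes were called. The label of ganglion was met by sympathetic neuron genes, which summed to 5790 to 15260 CPM in transgene-free wild-type ganglia and 1896 to 3130 CPM in tumors; Prph and Slc6a2 were lower in tumors (log2 fold changes -8.72 and -6.90) and Gata3 higher (0.95). In such bulk samples fewer cells of a type and less RNA per cell cannot be told apart, and the part of cell composition in the results below was not tested. The ribosomal transcript Rn45s took 8.57 to 12.8% of counts in tumors and 8.80% in MYCN wild-type replicate 1, against 2.15 to 5.64% in the other 11 ganglia; without Rn45s in the fit of tumors against transgene-free wild-type ganglia, Ezh2 was at a log2 fold change of 3.17 and Ezh1 at -2.23, and 57.6% of all genes were called.

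The first comparison asked how PRC2 transcripts in tumors differed from those in ganglia without the transgene, and the 2 catalytic genes moved in opposite directions. By edgeR's quasi-likelihood test with Benjamini-Hochberg adjustment, 8 of the 10 members rose and 1, Ezh1, fell, and Aebp2 did not pass. Of all 16665 genes tested, 57.7% were called, 27% higher and 30.7% lower, so the members' 9 calls stood against a high background. The median log2 fold change of the members was 1.3, beside -0.11 over all genes tested. The rise was largest in Ezh2 (8.45-fold) and Phf19 (7.52-fold), intermediate in Mtf2 (4.16-fold), Suz12 (2.75-fold), Rbbp4 (2.58-fold) and Jarid2 (2.36-fold), and smallest in Rbbp7 (1.81-fold) and Eed (1.64-fold), and Ezh1 was 4.91-fold lower. Values of a gene across libraries are CPM scaled by TMM, and levels of different genes are compared in deposited TPM, which account for transcript length.

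**Figure D1:**
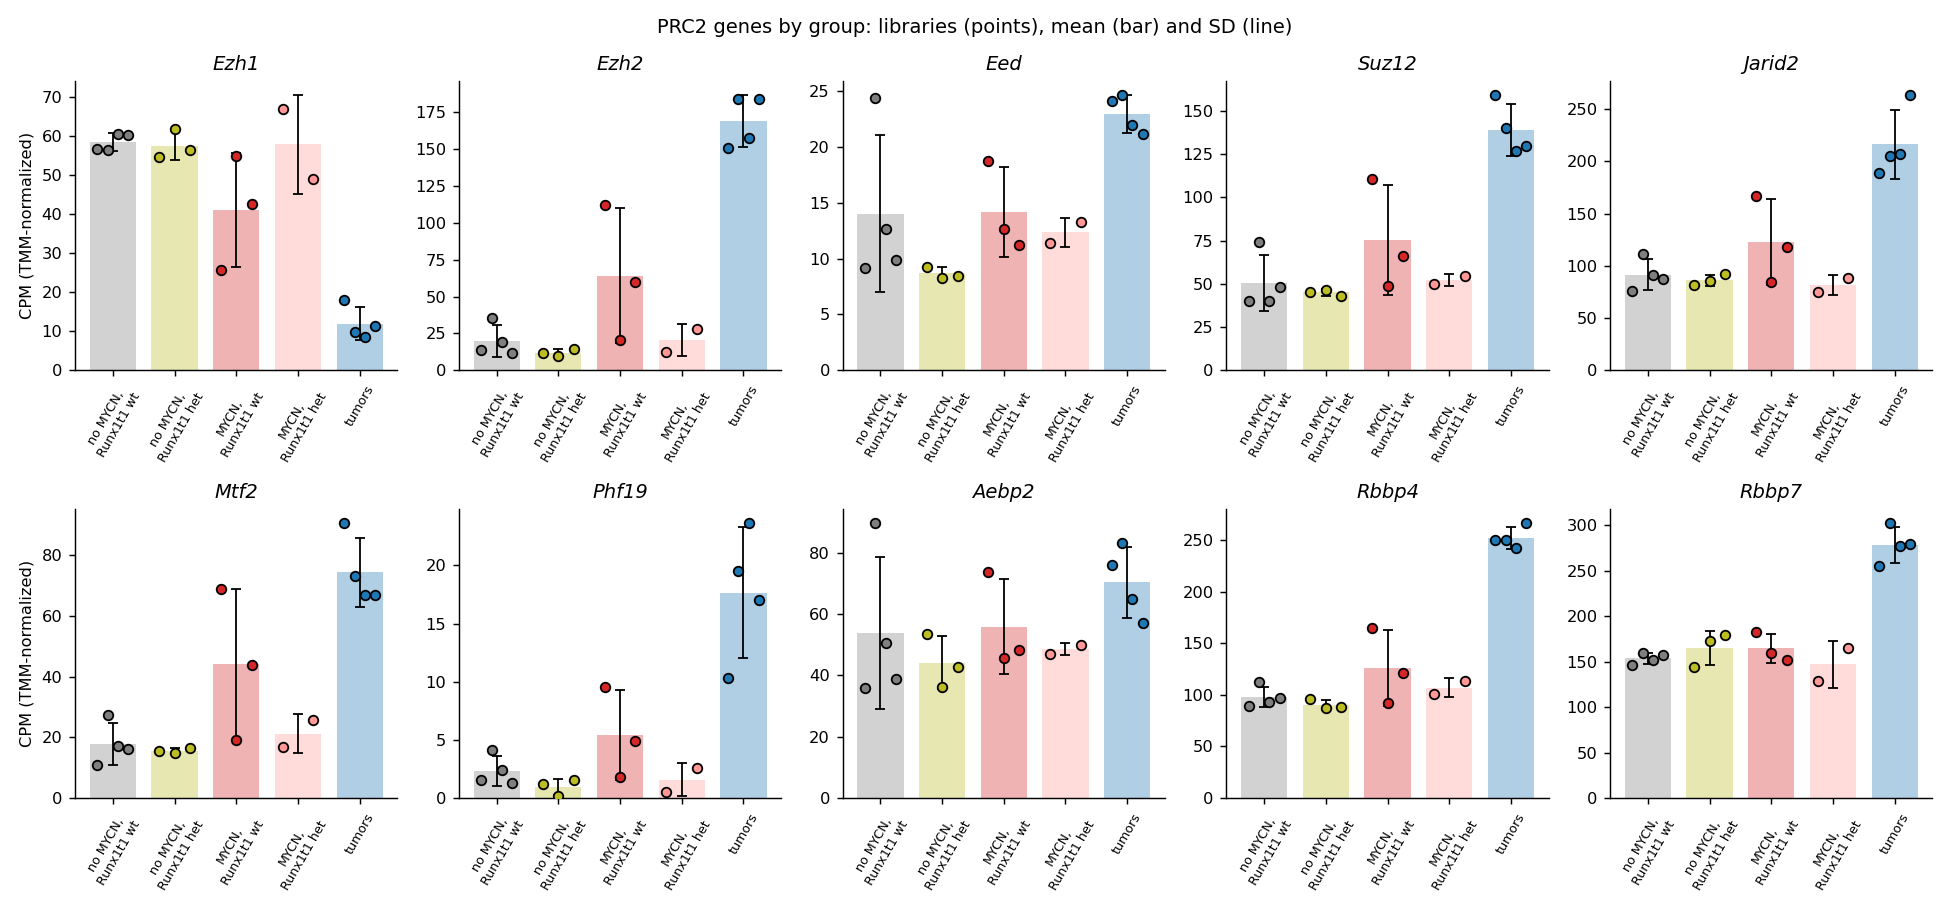
Level of each PRC2 gene in every library of the 5 groups, in CPM, with 1 panel per gene and a linear axis; points are libraries, bars are group means and lines the SD. Tumors lie above all 12 ganglia for Ezh2, Suz12, Jarid2, Phf19, Rbbp4 and Rbbp7 and below all of them for Ezh1.

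Ezh2, the catalytic subunit of dividing cells (chr6:47530139-47595341, minus strand, GRCm38), was at 14.0, 35.6, 19 and 11.6 CPM in transgene-free wild-type replicates 1 to 4. It was at 11.8, 9.68 and 14.7 CPM in transgene-free replicates labelled het, at 112, 20.5 and 59.9 CPM in MYCN wild-type replicates 1, 3 and 4, and at 12.7 and 27.9 CPM in MYCN replicates labelled het. Tumors held 150, 184, 157 and 184 CPM. Every tumor was above every ganglion, and the MYCN wild-type ganglia spread from the range of transgene-free ganglia to near that of tumors. Tumors had a mean of 169 ± 17.8 CPM (SD, n = 4) against 20.1 ± 10.8 CPM (SD, n = 4) in transgene-free wild-type ganglia, a log2 fold change of 3.08 (SE 0.475, adjusted p = 0.000112 by edgeR).

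Ezh1, the alternative enzyme (chr11:101191115-101226463, minus strand), was nearly level among transgene-free ganglia, at 56.5, 56.3, 60.3 and 60.3 CPM in wild-type and 54.5, 61.8 and 56.2 CPM in labelled-het libraries. MYCN wild-type ganglia held 25.8, 54.7 and 42.5 CPM and those labelled het 66.7 and 48.9 CPM. In tumors it was at 17.9, 9.72, 8.42 and 11.5 CPM, below every ganglion. The difference from transgene-free wild-type ganglia was -2.30 on the log2 scale (SE 0.254, adjusted p = 1.04e-05 by edgeR), where its mean was 58.4 ± 2.27 CPM (SD, n = 4). In transgene-free wild-type replicate 2, the library with high lymphocyte markers, Ezh2 was the highest of its group. Ezh1 there was at 56.3 CPM, next to the 56.5 CPM of replicate 1.

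**Figure D2:**
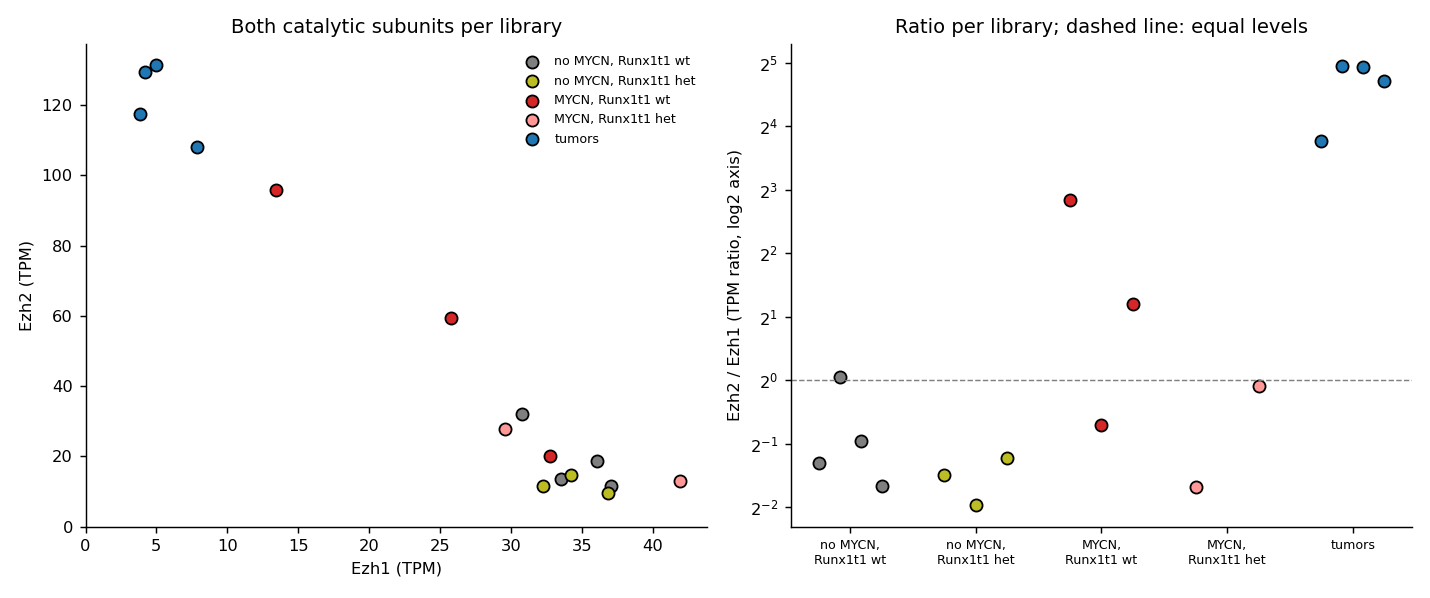
Ezh2 against Ezh1 in deposited TPM on linear axes (left), and their ratio on a log2 axis by group (right); points are libraries and the dashed line marks equal levels. The ratio ranges in tumors from 13.7 to 31 and in transgene-free ganglia from 0.257 to 1.04.

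Set per length, the ratio of Ezh2 to Ezh1 was 0.407, 1.04, 0.516 and 0.315 in transgene-free wild-type ganglia and 0.356, 0.257 and 0.428 in those labelled het. It was 7.13, 0.612 and 2.31 in MYCN wild-type ganglia, 0.313 and 0.939 in MYCN ganglia labelled het, and 13.7, 31, 30.5 and 26.3 in tumors. Ezh1 was thus the more abundant catalytic transcript in 6 of 7 transgene-free ganglia and Ezh2 in every tumor, with MYCN wild-type ganglia on both sides of 1. Ezh2 made up 93.2 to 96.9% of the summed TPM of both in tumors and 20.4 to 51.0% in transgene-free ganglia. The sum itself ranged from 116 to 136 TPM in tumors and from 43.7 to 62.9 TPM in transgene-free ganglia, so both the share and the sum were higher in tumors.

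Suz12, the scaffold of the core (chr11:79993106-80034123, plus strand), was at 39.9, 74.0, 40.1 and 48.3 CPM in transgene-free wild-type ganglia and at 45.6, 46.7 and 43.1 CPM in those labelled het. MYCN wild-type ganglia held 110, 48.7 and 66.3 CPM, MYCN ganglia labelled het 49.9 and 54.6 CPM, and tumors 159, 140, 127 and 129 CPM. In CPM all tumors were above all ganglia, by 1.46 on the log2 scale against transgene-free wild-type ganglia (SE 0.241, adjusted p = 0.000186). Eed, the subunit that binds the mark (chr7:89954654-89980983, minus strand), was at 9.19, 24.4, 12.7 and 9.90 CPM in transgene-free wild-type ganglia, 9.29, 8.26 and 8.48 CPM in those labelled het, 18.7, 12.6 and 11.2 CPM in MYCN wild-type ganglia and 11.4 and 13.3 CPM in MYCN ganglia labelled het. Tumors held 24.1, 24.7, 21.9 and 21.2 CPM, and the 24.4 CPM of transgene-free wild-type replicate 2 fell among them. The log2 fold change of Eed was 0.71 (SE 0.275, adjusted p = 0.0383) and 1.13 without that replicate (SE 0.195, adjusted p = 0.000277). It was the weakest call. It did not pass with a term for sex (0.61, adjusted p = 0.0796 by edgeR), when only the groups compared entered the fit (0.70, adjusted p = 0.0963) or by limma on TPM (0.38, adjusted p = 0.161). Nor did it pass without any 1 library of both groups other than transgene-free wild-type replicate 2 (0.57 to 0.75, adjusted p from 0.0524 to 0.109 by edgeR).

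Rbbp4 and Rbbp7 are closely related histone binders, and deposited counts of Rbbp4 were fractional in 15 libraries and of Rbbp7 in 9, so some reads were shared out between alternative sources. Rbbp4 (chr4:129307100-129335370, minus strand) was at 89.6, 112, 93.1 and 96.8 CPM in transgene-free wild-type ganglia and 250, 250, 242 and 267 CPM in tumors, a log2 fold change of 1.37 (SE 0.152, adjusted p = 1.1e-05 by edgeR). Rbbp7 (chrX:162760402-162779092, plus strand) was at 146, 160, 151 and 157 CPM and 255, 303, 277 and 279 CPM, a log2 fold change of 0.86 (SE 0.118, adjusted p = 4.8e-05 by edgeR). Both separated tumors from all 12 ganglia, which ranged from 87.5 to 165 CPM for Rbbp4 and 129 to 182 CPM for Rbbp7. The ratio of Rbbp7 to Rbbp4 in TPM was 2.92 to 3.35 in transgene-free wild-type ganglia and 2.07 to 2.46 in tumors, ranges that did not overlap.

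Among accessory subunits of PRC2.1, Mtf2 (chr5:108065674-108109004, plus strand) was at 10.9, 27.5, 17.1 and 16.1 CPM in transgene-free wild-type ganglia, 15.5, 14.8 and 16.6 CPM in those labelled het, 68.9, 19.2 and 43.8 CPM in MYCN wild-type ganglia, 16.7 and 25.7 CPM in MYCN ganglia labelled het, and 90.7, 73.0, 66.9 and 66.8 CPM in tumors. Its log2 fold change between tumors and transgene-free wild-type ganglia was 2.05 (SE 0.345, adjusted p = 0.000212), and MYCN wild-type replicate 1 reached the tumors. Phf19 (chr2:34893757-34914026, minus strand), the least abundant member of ganglia, was at 1.52, 4.16, 2.43 and 1.33 CPM in transgene-free wild-type ganglia and 10.3, 19.5, 23.7 and 17.1 CPM in tumors, a log2 fold change of 2.91 (SE 0.692, adjusted p = 0.00268). MYCN wild-type ganglia held 9.54, 1.83 and 4.91 CPM, the 1.83 CPM within the transgene-free wild-type range, whereas those labelled het held 0.563 and 2.62 CPM and transgene-free libraries labelled het 1.2, 0.174 and 1.54 CPM. Phf1, the other Polycomb-like gene, which was not among the 10 members, went the other way, from 34.8 to 49.1 CPM in transgene-free wild-type ganglia to 5.87 to 9.78 CPM in tumors (log2 fold change -2.44, SE 0.208, adjusted p = 1.6e-06 by edgeR). The summed TPM of the 3 Polycomb-like genes was 48.6 to 59.6 in transgene-free wild-type ganglia and 41.3 to 50.2 in tumors, with the 2 ranges overlapping.

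Among PRC2.2 subunits, Jarid2, a DNA-binding protein that recruits the complex (chr13:44729474-44921643, plus strand), was at 76.3, 111, 91.1 and 87.5 CPM in transgene-free wild-type ganglia, 167, 84.4 and 118 CPM in MYCN wild-type ganglia and 189, 205, 207 and 264 CPM in tumors. It was at 81.5, 85.3 and 92.2 CPM in transgene-free libraries labelled het and at 74.6 and 88.7 CPM in MYCN ganglia labelled het, and in CPM tumors did not overlap any ganglion. The log2 fold change from transgene-free wild-type ganglia was 1.24 (SE 0.191, adjusted p = 0.000111). Aebp2, its partner (chr6:140622663-140678472, plus strand), was at 35.9, 89.8, 50.6 and 38.9 CPM there and at 76.1, 83.2, 65.0 and 57.1 CPM in tumors, a log2 fold change of 0.39 that did not pass (SE 0.268, adjusted p = 0.228). It passed with a term for depth (0.67, SE 0.251, adjusted p = 0.0375). Without transgene-free wild-type replicate 2, the highest of its group, the log2 fold change of Aebp2 was 0.76 (SE 0.205, adjusted p = 0.00618) and all 10 members were called, where 58.7% of genes were. That replicate was also the highest of its group for every other member but Ezh1.

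**Figure D3:**
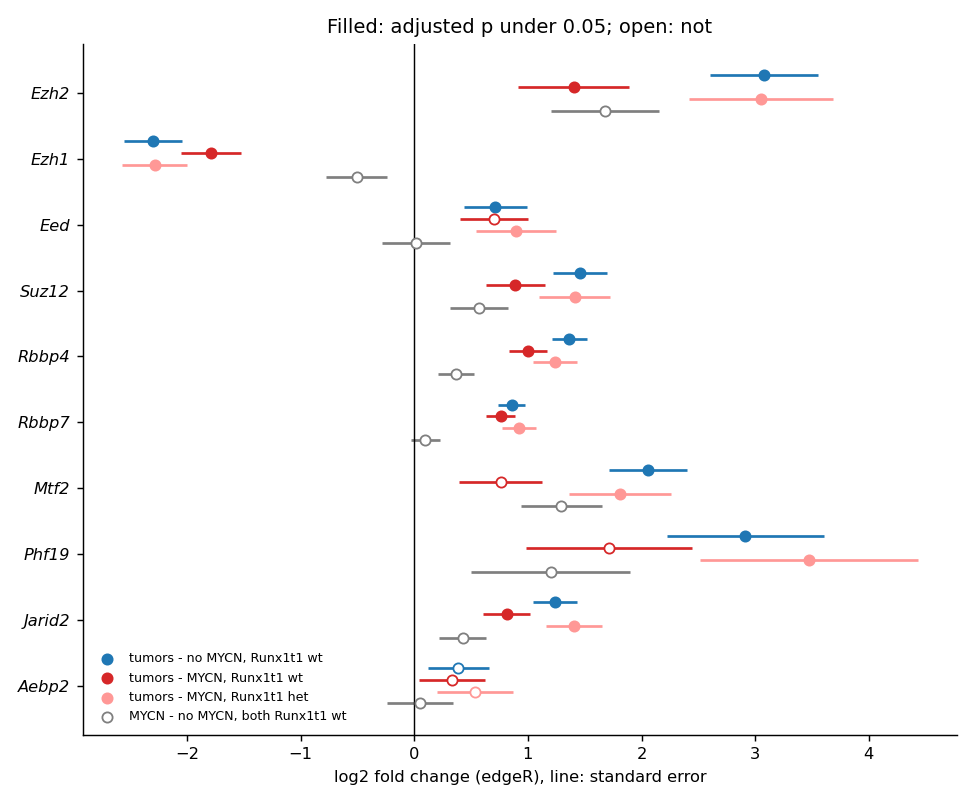
Log2 fold change of each PRC2 gene with its standard error, for tumors against 3 groups of ganglia and for MYCN against transgene-free wild-type ganglia, from edgeR; filled symbols passed the adjusted threshold of 0.05. Ezh1 is below 0 in each comparison with tumors, and the other 9 members are above 0.

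In CPM, 8 of 10 members separated the tumors from transgene-free wild-type ganglia without overlap, all but Eed and Aebp2, where 46.8% of genes did. Against all 12 ganglia 7 members separated the tumors in CPM and 4 in TPM, Ezh1, Ezh2, Rbbp4 and Rbbp7. All genes were not counted in this way, so these counts have no background beside them. In TPM the tumors overlapped MYCN wild-type ganglia for Eed, Suz12, Jarid2, Mtf2, Phf19 and Aebp2. In deposited TPM the median of all genes tested was itself shifted by -0.53 on the log2 scale of group means between tumors and these ganglia, against -0.10 in CPM. Relative to that median, the shift was 3.20 for Ezh2 and -2.19 for Ezh1 in TPM and 3.18 and -2.19 in CPM. The order of the members by level changed accordingly. In transgene-free wild-type ganglia Rbbp7 (median 173 TPM) and Rbbp4 (54.8 TPM) were the most abundant, followed by Jarid2 (37.5 TPM), Ezh1 (34.8 TPM), Suz12 (25.8 TPM), Aebp2 (24.2 TPM), Ezh2 (16.1 TPM), Eed (14.7 TPM), Mtf2 (9.51 TPM) and Phf19 (1.34 TPM). Neighbours from Jarid2 to Mtf2 overlapped in their ranges. In tumors Rbbp7 (240 TPM) was followed by Ezh2 (123 TPM) and Rbbp4 (105 TPM), which overlapped, then by Jarid2 (64.0 TPM), Suz12 (56.8 TPM), Mtf2 (29.1 TPM), Aebp2 (27.9 TPM), Eed (22.2 TPM), Phf19 (8.96 TPM) and Ezh1 (4.59 TPM). Ezh1 went from rank 4 of 10 to rank 10 and Ezh2 from rank 7 to rank 2, although Ezh1 and Phf19 overlapped in tumors.

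Against MYCN wild-type ganglia, which carry the same transgene, edgeR called 6 members, where it called 9 against transgene-free wild-type ganglia. Between these groups of ganglia themselves it called none (below), so a smaller difference from tumors was not shown for any member by edgeR. Tumors had 5 members higher, Ezh2 (2.64-fold), Suz12 (1.85-fold), Jarid2 (1.76-fold), Rbbp4 (2.00-fold) and Rbbp7 (1.69-fold), and Ezh1 3.45-fold lower. Of all genes, 34.5% were called, 14% higher and 20.5% lower. The members' median log2 fold change was 0.79, beside -0.01 over all genes. Eed (0.70, SE 0.300, adjusted p = 0.0856), Mtf2 (0.76, SE 0.364, adjusted p = 0.121), Phf19 (1.71, SE 0.729, adjusted p = 0.0837) and Aebp2 (0.34, SE 0.290, adjusted p = 0.394) did not pass by edgeR. Phf19 passed by DESeq2 (adjusted p = 0.0305), by limma on TPM (adjusted p = 0.0276) and with a term for depth (adjusted p = 0.0392), and Eed with a term for depth (adjusted p = 0.024) and when only the groups compared entered the fit (adjusted p = 0.0454). In CPM, 8 of 10 members separated these groups, all but Mtf2 and Aebp2, against 39.7% of genes. In TPM, Eed, Suz12, Jarid2 and Phf19 overlapped as well. The call of Ezh2 (log2 fold change 1.40, SE 0.492, adjusted p = 0.0402) was close to the threshold and was lost without MYCN wild-type replicate 3 (log2 fold change 0.98, adjusted p = 0.13) or with a term for sex (1.24, adjusted p = 0.0778). It was also lost, at log2 fold changes of 1.36 to 1.44, without MYCN wild-type replicate 4 (adjusted p = 0.114), without tumor replicate 2, 3 or 4 (adjusted p from 0.056 to 0.0728) and when only the groups compared entered the fit (adjusted p = 0.066). Without MYCN wild-type replicate 1, the library with Ezh2 at 112 CPM, 9 members passed, where 40.6% of genes did, and without replicate 3 or 4 4 did, where 21.3% and 24.4% of genes did.

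Against MYCN ganglia labelled het, tumors had 8 members higher and Ezh1 4.87-fold lower. Of all genes, 45.5% were called, 22% higher and 23.5% lower, and the members' median log2 fold change was 1.32 beside 0.07 over all genes. Phf19 was 11.1-fold higher and Ezh2 8.31-fold, from labelled-het libraries at 0.563 and 2.62 CPM and at 12.7 and 27.9 CPM. Only Aebp2 (0.54, SE 0.335, adjusted p = 0.208 by edgeR) did not pass. With a term for depth Aebp2 was at 1.06 and passed (adjusted p = 0.028 by edgeR), as it did with the replicate block (0.79, adjusted p = 0.034). Both MYCN labelled-het libraries were under 20000000 counts and no tumor was, so the term for depth was set by ganglia of the other groups. Eed (0.90, SE 0.349, adjusted p = 0.0498 by edgeR) was at the threshold. Its call was lost with no filter (0.90, adjusted p = 0.057), with a term for sex (0.68, adjusted p = 0.167) and by limma on TPM (0.38, adjusted p = 0.27). It was also lost without any 1 tumor, at 0.86 to 0.93 (adjusted p from 0.0628 to 0.083 by edgeR). Without MYCN labelled-het replicate 1 Eed was at 0.79, and without replicate 2 at 1.01. All 10 members separated these groups in CPM, where 63% of genes did with 2 libraries on one side. Without MYCN labelled-het replicate 1 6 members passed, where 24.8% of genes did, with Phf19 at a log2 fold change of 2.75 (adjusted p = 0.108) and Mtf2 at 1.53 (adjusted p = 0.0747) no longer called and Ezh2 at 2.60 (adjusted p = 0.0356); without replicate 2 Phf19 was at 4.96 and Ezh2 at 3.73. In both fits the lone library left was assumed to vary like the other groups.

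Between MYCN wild-type and transgene-free wild-type ganglia of the same age, no member passed by edgeR, with 0.936% of all genes called. At an unadjusted p under 0.05 there were 4 of 10 members, where 19.8% of genes were, and 9 of 10 log2 fold changes were positive, with a median of 0.40 beside -0.04 over all genes. Ezh2 had the largest value, 1.68 (SE 0.476, adjusted p = 0.0945), followed by Mtf2 at 1.29 (SE 0.358, adjusted p = 0.0874) and Phf19 at 1.2 (SE 0.700, adjusted p = 0.356), and Ezh1 was at -0.51 (SE 0.264, adjusted p = 0.302). DESeq2 called 2 members, where it called 8.44% of genes, and edgeR called 2 without transgene-free wild-type replicate 2, where it called 4.08% of genes, Ezh2 (2.10) and Mtf2 (1.57), each with an adjusted p = 0.0345. Without MYCN wild-type replicate 3, whose Ezh2 was 20.5 CPM against 59.9 and 112 CPM in its group, 4 members passed, where 10.9% of genes did. Without MYCN wild-type replicate 1, at 112 CPM, none did, and Ezh2 was at 1.01 (SE 0.456, adjusted p = 0.596), Mtf2 at 0.82 (adjusted p = 0.59) and Phf19 at 0.53 (adjusted p = 0.902). In CPM only Ezh1 separated the groups, lower in MYCN wild-type ganglia, where 9.17% of genes did so.

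Among ganglia, comparisons with those labelled het called no member. Between MYCN ganglia labelled het and MYCN wild-type ganglia, 0.012% of genes were called; 3 members had an unadjusted p under 0.05, against 12.6% of genes, 9 of 10 log2 fold changes were negative, and their median was -0.38 beside -0.09 over all genes. By edgeR, Ezh2 was at -1.65 (SE 0.604, adjusted p = 0.339), Mtf2 at -1.05 (SE 0.444, adjusted p = 0.377) and Jarid2 at -0.59 (SE 0.248, adjusted p = 0.376). DESeq2 called no member, where it called 1.74% of genes. It had 4 members at an unadjusted p under 0.05, for which its share over all genes was not counted. Ezh2 at 12.7 and 27.9 CPM in the labelled-het libraries overlapped the 20.5 CPM of MYCN wild-type replicate 3. MYCN and transgene-free ganglia, both labelled het, had no gene called (0%) and no member at an unadjusted p under 0.05 (1.45% of genes). DESeq2 called no member (0.0865% of genes), and Ezh2 was at 0.75 (SE 0.568) by edgeR. In CPM 4 members, Eed, Suz12, Mtf2 and Rbbp4, did not overlap and were higher with the transgene, where 22.5% of genes did not overlap. Transgene-free ganglia labelled het and wild-type also had 0% of genes called by edgeR and none of the members by edgeR or DESeq2 (0.0104% of genes by DESeq2). In edgeR 1 member, Eed, was at an unadjusted p under 0.05, against 4.12% of genes. Eed there was at -0.69 (SE 0.302, adjusted p = 0.993 by edgeR), with the wild-type group holding replicate 2 at 24.4 CPM. The interaction of transgene and Runx1t1 label, which asks whether the effect of MYCN differed by label, had 0% of genes called by edgeR. No member was at an unadjusted p under 0.05, against 5.62% of genes, and DESeq2 called none (0.166% of genes). For Ezh2 the interaction was -0.92 (SE 0.751, adjusted p = 0.863 by edgeR).

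**Figure D4:**
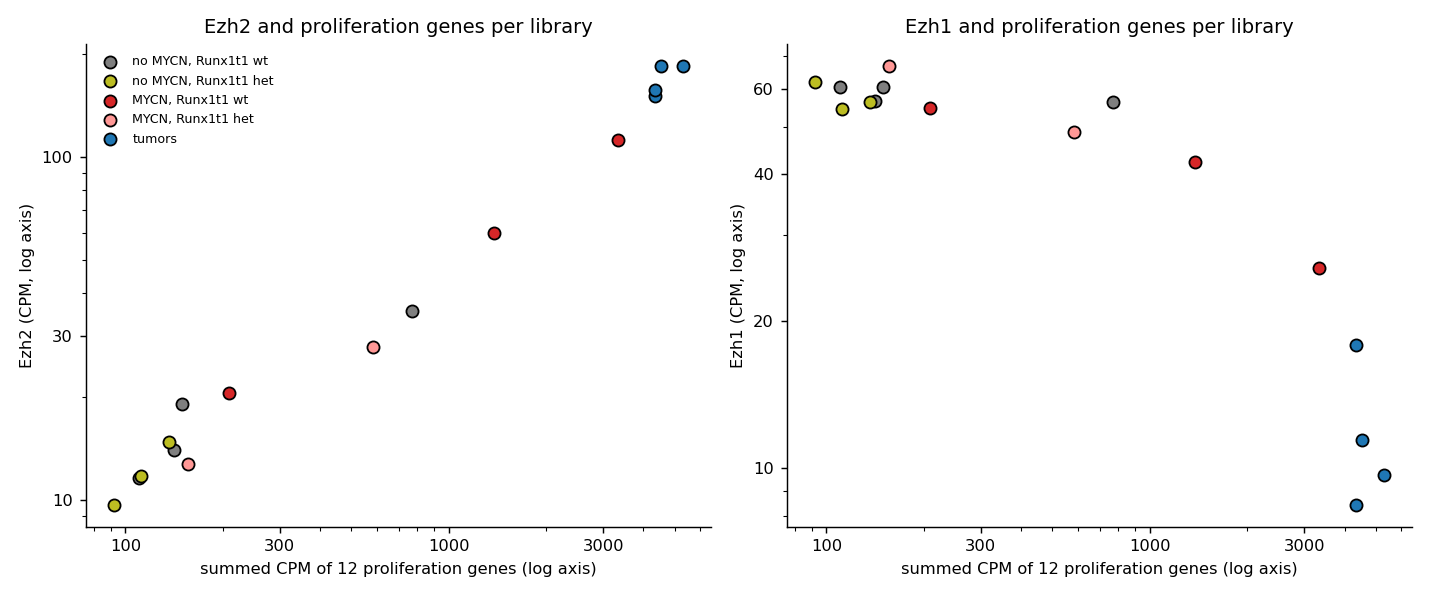
Ezh2 (left) and Ezh1 (right) in CPM against the summed CPM of 12 proliferation genes, both axes logarithmic, with 1 point per library coloured by group. Libraries with a high sum have high Ezh2, and Ezh1 is lowest in tumors. Ezh1 is at 25.8 CPM in MYCN wild-type replicate 1 (sum 3331 CPM) and at 42.5 CPM in replicate 4 (1377 CPM). It is at 56.3 CPM in transgene-free wild-type replicate 2 (sum 770 CPM), the library with high lymphocyte markers. The 4 tumors lie at 4331 to 5298 CPM of the sum.

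Libraries that were high for Ezh2 were high for 12 proliferation genes, which include Mki67, Cdk1 and Ccnb1. The sum was 142, 770, 150 and 110 CPM in transgene-free wild-type ganglia, 112, 92.2 and 136 CPM in those labelled het, 3331, 209 and 1377 CPM in MYCN wild-type ganglia, 156 and 584 CPM in MYCN ganglia labelled het, and 4335, 5298, 4331 and 4529 CPM in tumors. The libraries ranked 5 to 9 by Ezh2, all of them ganglia, held the same ranks by this sum, and the top 4 by both were tumors. All 12 genes passed as higher in tumors than in transgene-free wild-type ganglia, beside 27% of all genes, and 1 of 12 than in MYCN wild-type ganglia, beside 14%. None passed between MYCN and transgene-free wild-type ganglia, where 0.936% of all genes were called. Mki67 was at 1649 CPM in MYCN wild-type replicate 1, 77.9 CPM in replicate 3 and 611 CPM in replicate 4. The part of proliferation in the levels of the PRC2 genes was not tested.

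By likeness over the 16 libraries, taken as the root mean square difference of mean-centred log2(TPM + 1) among 16655 genes, Ezh2 was nearest to Haus5 (0.200), Sgol1 (0.203), Hmgn2 (0.207), Dna2 (0.213) and 2610318N02Rik (0.214), where the median gene differed by 1.54. Haus5 and Sgol1 act at the mitotic spindle and in chromosome cohesion, Hmgn2 binds nucleosomes and Dna2 is a nuclease and helicase of DNA replication. Ezh1 was nearest to Itm2c (0.143), Diap2 (0.146), Tecpr1 (0.169), Wwc2 (0.171) and Vcl (0.177), where the median gene differed by 1.05. Vcl, which encodes vinculin of cell adhesions, had a mean of 118.8 TPM in transgene-free wild-type ganglia and 20.4 TPM in tumors. These are descriptions of libraries that share group and depth.

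**Figure D5:**
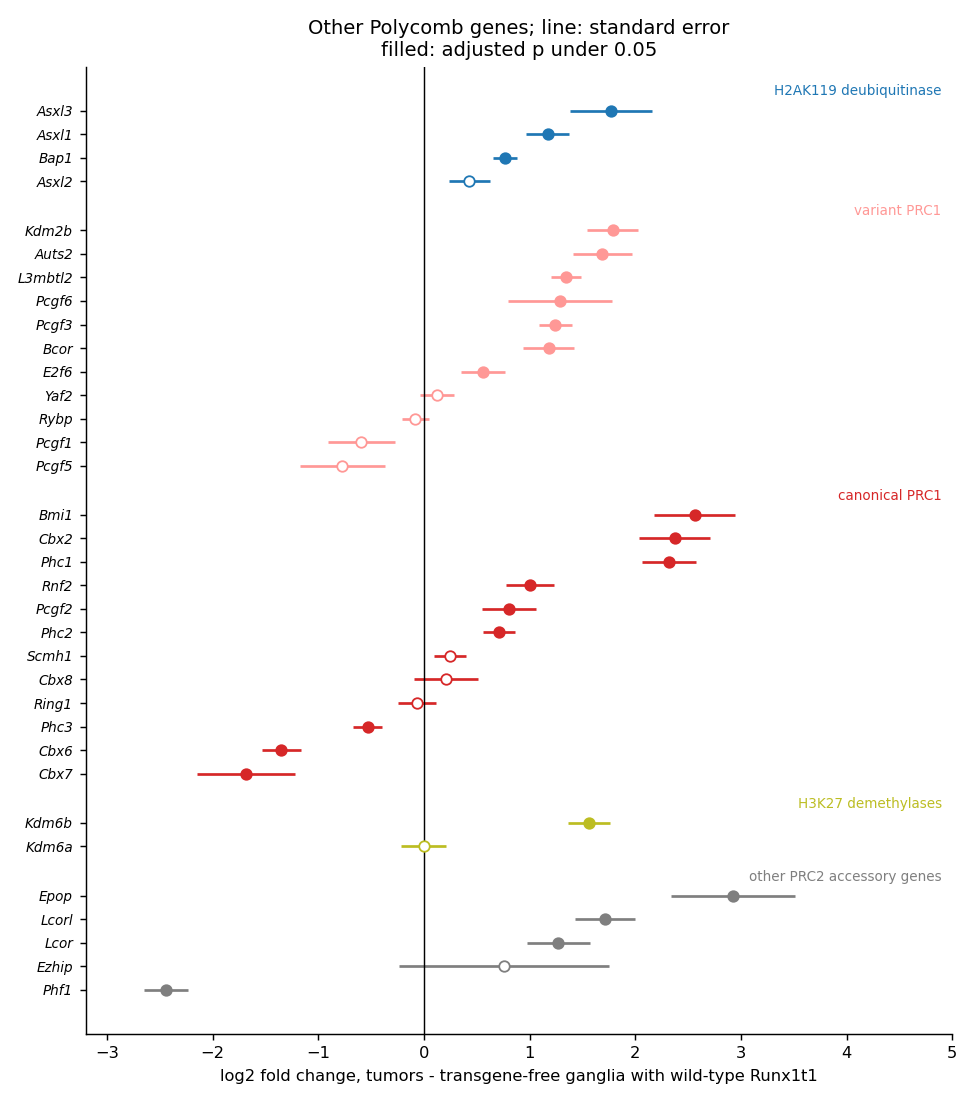
Log2 fold change between tumors and transgene-free wild-type ganglia for genes that act with or against PRC2, by list, from edgeR; filled points passed the adjusted threshold of 0.05. Phf1, Cbx6 and Cbx7 lie below 0, whereas Epop, Bmi1, Phc1 and Cbx2 lie above it.

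Genes that act with PRC2 were divided; their counts stand beside the 27% of all genes called higher and 30.7% called lower in this comparison. Of 5 other accessory genes, 3 rose in tumors against transgene-free wild-type ganglia, Epop (log2 fold change 2.92), Lcorl (1.71) and Lcor (1.27), all known from PRC2.1, and Phf1 fell. Ezhip, an inhibitor of the enzyme, was at 0.76 and did not pass, and the list's median was 1.27. Its level was near 0, at 0.768 CPM or less in every library, with the highest value in transgene-free labelled-het replicate 4. Of the 2 demethylases that remove the mark, Kdm6b rose (1.56, SE 0.201, adjusted p = 3e-05 by edgeR) and Kdm6a, on the X chromosome, was at -0.00, with 31.4 to 39.7 CPM in the 3 tumors that expressed the Y-linked Ddx3y and 56.6 CPM in the other. Of 12 genes of canonical Polycomb repressive complex 1, whose Cbx subunits bind the mark, 6 rose and 3 fell with a median of 0.48. Bmi1 (2.56), Cbx2 (2.37), Phc1 (2.32) and Rnf2 (1.00) led those that rose, and Cbx7 (-1.68), Cbx6 (-1.35) and Phc3 (-0.53) were those that fell. The Cbx genes were therefore split, with Cbx2 at 8.0 CPM in transgene-free wild-type ganglia and 41.4 CPM in tumors and Cbx7 at 8.77 and 2.72 CPM. Of 11 genes of variant complex 1, 7 rose and none fell, with a median of 1.18, among them Kdm2b (1.79), which binds unmethylated CpG islands, Auts2 (1.69), L3mbtl2 (1.35) and Pcgf6 (1.29). Of 4 genes of the deubiquitinase that opposes complex 1, Asxl3 (1.77), Asxl1 (1.17) and Bap1 (0.77) rose. Phc1 was the 1 gene of these lists called between MYCN and transgene-free wild-type ganglia (log2 fold change 1.29, SE 0.261, adjusted p = 0.0397 by edgeR), where 0.936% of all genes were. It was at 27.9 to 34.5 CPM in transgene-free wild-type and 120, 38.4 and 76.0 CPM in MYCN wild-type libraries. This call was lost with the replicate block and when only the groups compared entered the fit, where 0% of genes were called. The same held without MYCN wild-type replicate 1 or 4 or transgene-free wild-type replicate 1, 3 or 4.

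Genes described as silenced by EZH2 in neuroblastoma were then read. Of 4 such genes, 3 fell in tumors against transgene-free wild-type ganglia and none rose, with a median log2 fold change of -2.53; over all genes tested 30.7% fell and 57.7% were called. Ngfr, a neurotrophin receptor, fell from 515 to 1840 CPM to 1.57 to 4.86 CPM (log2 fold change -8.89). Casz1, a differentiation factor, was at -2.97 and Clu at -2.10 (adjusted p = 0.0344), and Runx3 was at -1.90 and did not pass. Of these, Clu and Runx3 turned on transgene-free wild-type replicate 2, where they stood at 456 and 35.6 CPM; without it Clu was at -0.96 (adjusted p = 0.231) and Runx3 at 1.3 (adjusted p = 0.102), and 2 of 4 passed. Clu also differed among tumors, at 119.5 CPM in replicate 3, the one with the high liver sum, against 10.5 to 18.7 CPM in the others. Ngfr is also expressed by sympathetic neurons and glia, whose lists had 8 of 11 and 7 of 8 markers lower in tumors. In MYCN wild-type ganglia no gene of the list passed against transgene-free wild-type ganglia.

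Of 9 genes of MHC class I presentation, another set repressed through PRC2 in several cancers, 8 passed as lower in tumors than in transgene-free wild-type ganglia, beside 30.7% of all genes, and 4 without replicate 2, whose sum was 3071 CPM against 301 to 465 CPM in the rest of its group. Without that library the list median went from -2.41 to -1.25, and Tap1 went from -3.27 to -1.62, Tap2 from -2.80 to -1.79 and Psmb8 from -2.71 to -1.25, each still called. Psmb9 went from -3.36 to -1.26 and was no longer called (adjusted p = 0.334). The list sum was 155 to 343 CPM in tumors, overlapping the 301 to 465 CPM of the other transgene-free wild-type ganglia. Against MYCN wild-type ganglia 1 of the 9 genes was lower in tumors, beside 20.5% of all genes. Against MYCN ganglia labelled het it was also 1 of 9, beside 23.5% of all genes. Of 3 inhibitors of cyclin-dependent kinases held by Polycomb, none passed by edgeR; Cdkn2a was at 14.1 CPM in tumor replicate 2 and at 1.47 CPM or less in every other library. Without replicate 2 of transgene-free wild-type ganglia Cdkn2a passed, with a log2 fold change of 6.14 (SE 1.84, adjusted p = 0.012), in a group otherwise at or near 0. Of 30 developmental regulators that carry the mark in embryonic stem cells, 28 had a mean below 1 TPM over all libraries. Only 12 of them passed the filter on low counts, of which 2 rose and 3 fell, beside 57.7% of all genes called (1 rose and 3 fell of 13 without transgene-free wild-type replicate 2), and Sox17 of endothelium and endoderm (-3.29, SE 0.581, adjusted p = 0.00031) was the only called one above that level.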

How the data were processed

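Mouse RNA was prepared with the SMARTer Stranded Total RNA-seq v2 kit and sequenced as paired reads on a NovaSeq; the labels name polyA RNA. The authors aligned reads to mm10 with STAR, used SAMtools and deposited RSEM expected counts and TPM per gene. Whether counting used strand was not given in the sources used here; Eed, Mtf2, Rbbp4 and Rbbp7 overlap genes on the opposite strand (E230029C05Rik, Tmed5, Sync and Txlng), whose reads could not be told apart. Human MYCN had no row, and Mycn is the mouse gene. Epop and Ezhip were read under their older symbols E130012A19Rik and AU022751. Column names with Hom were read as homozygous for the wild-type Runx1t1 allele.

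Expected counts were rounded and tested with edgeR 4.0.16 in R 4.3.3 (filterByExpr, 16665 genes, TMM, quasi-likelihood, all 5 groups in one fit, Benjamini-Hochberg adjustment over all genes, threshold 0.05); tests are two-sided. Calls used no fold threshold. DESeq2 1.42.0 and limma 3.58.1 on log2(TPM + 1) were alternatives, as were scaling, filters, sex, depth, the replicate block and leaving out each library. All 10 members were described. From related lists at most 4 genes per direction were named, those of largest fold change past the threshold with a mean of at least 1 TPM, and every gene of a list of 5 or fewer could be named; Cdkn2a, Cd79a, Cd3e and Mki67 were singled out after their values were seen. Members and lists were chosen with earlier results of these data known. Replicate numbers were shared by groups. The deviations of same-numbered libraries correlated above 0.1 in every pair only between tumors and transgene-free wild-type ganglia (0.148 to 0.319). For these groups the blocked fit also called 9 members, where it called 55.8% of all genes. Positions are from GENCODE vM21 and promoters from RefSeq, both GRCm38. Some genes of the related lists are not reported here and were left out of their counts. The code was tested on simulated counts.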

Additional observations from a re-analysis of the deposited data

How the results depend on the processing

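The number of members called was recomputed under each alternative, and no member changed direction where it was called. Between MYCN and transgene-free wild-type ganglia edgeR called 0 members and DESeq2 called 2, where 0.936% and 8.44% of all genes were called. Leaving out each library in turn gave 0 to 4, where 0 to 10.9% of all genes were called. The count was 8 to 10 for tumors against transgene-free wild-type ganglia, where 47.8 to 65.3% of all genes were called. It was 4 to 9 against MYCN wild-type ganglia, where 21.3 to 42.1% were, and the lowest count there came with 1 library left out. Against MYCN ganglia labelled het it was 8 to 10 with at least 2 libraries per group, where 36.5 to 55% of all genes were called. Without MYCN labelled-het replicate 1 it was lower, as given above. Calls of Eed, Aebp2, Phf19, Mtf2, Ezh2, Suz12, Jarid2 and Rbbp4 changed in at least 1 comparison. Those of Jarid2 and Rbbp4 changed only as gains between MYCN and transgene-free wild-type ganglia. Suz12, at a log2 fold change of 0.89 against MYCN wild-type ganglia, lost its call without MYCN wild-type replicate 3 (0.66, adjusted p = 0.0871 by edgeR) or 4 (0.81, adjusted p = 0.0749). With the replicate block Aebp2 passed against MYCN ganglia labelled het (log2 fold change 0.79, adjusted p = 0.034 by edgeR). So 10 members were called there, where 45.5% of all genes were. Same-numbered libraries correlated from -0.315 to 0.319 over 17 pairs. Requiring 10 counts in every library removed Phf19, the member with the lowest counts. Limma on TPM and related lists without transgene-free wild-type replicate 2 were added after seeing the data.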
